A study of Mus musculus with 3 samples.

Results

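The 47 genes described here make DNA in dividing cells. They encode the proteins that mark and license origins, the replicative helicase, the polymerases, the sliding clamp and its loader, the proteins that bind single strands and join new ones, the enzymes that supply deoxynucleotides, and the factors that restore methylation and nucleosomes behind the fork. They were taken by gene ID from a written list of such genes in 7 function groups. The list was chosen with earlier results of these data known, so its comparisons with all genes tested are descriptions only. All 47 were present among the 16621 genes listed in any library, and all 47 were among the 12888 genes tested. The 2 scarcest, Orc1 and Gins1, had 8 counts each in the WT library and passed the filter on low counts only through DF508 libraries.

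The RNA came from tail tendon derived stem cells, progenitors grown from tendon tissue in culture, of C57BL/6 mice aged 10 weeks. The cells were untreated and were collected when confluent at passage 4. The study compared wild-type cells (WT, 1 library) with cells from mice carrying CFTRΔF508 (DF508, 2 libraries), the deletion of a phenylalanine from the Cftr anion channel that is a common cause of cystic fibrosis. The labels leave out whether the mutation was on 1 or both alleles and whether separate mice or cultures gave the DF508 libraries. The p-values below take their spread only from the 2 DF508 libraries, with information shared across genes. That spread can therefore be technical. There was no second WT library, and every fold change below rests on the single one.

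Before a cell divides, the origin recognition complex, Cdc6 and Cdt1 load the Mcm helicase onto DNA during G1. At the start of S phase Cdc45 and the GINS complex join the helicase, which unwinds the strands for the polymerases. Many of these genes are transcribed in a burst around the G1 to S transition under E2F transcription factors, which the Rb family holds back in resting cells. Their transcripts are therefore widely used as a sign of how many cells of a culture are cycling. In bulk RNA, a change in the number of cells that express a gene and a change in its RNA per cell cannot be told apart.

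Because E2F regulation is the best known feature that these genes share, their promoters were searched for an E2F-like motif. RefSeq promoters (250 bases before to 50 after the annotated start, build GRCm38.p6) were given for 39 of the 47 genes. The motif TTTNNCGC, read on both strands, was present in 18 of the 39 (46.2%). It was present in 9.86% of the 10221 tested genes with a promoter and in 5.93% of all 27025 genes of the table. The median GC content was 60.2% for the replication genes and 60.7% for the tested genes. The same letters in reversed order, CGCNNTTT, were present in 23.1% of the replication genes and in 12.9% of tested genes. The CHR element TTTGAA, a cell cycle element bound by the DREAM complex, was in 15.4% and 14.4%, and the CCAAT box, bound by NF-Y, was in 64.1% and 42.9%, both also read on both strands. A match is a run of letters and not a shown binding site.

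The matches near the genes of the Mcm2 to Mcm7 ring and Dnmt1 are shown with up to 10 bases on each side, since the ring is the core of the replication machine and Mcm3 and Dnmt1 were among the genes that rose. Each sequence is written 5′ to 3′ on the gene's strand, with bases of the motif in capitals. The Mcm5 window and the first Mcm6 window each hold overlapping matches on both strands. Mcm2 held no match, and no promoter was given for Mcm4 or for Pole, which also rose.
Mcm3, chr1:20820276-20820303, minus strand, 20 bases downstream of the start: aacttccgtgGCGGGAAAacttgggaag
Mcm3, chr1:20820263-20820284, minus strand, 39 bases downstream: cttgggaagtTTTGGCGCcaag
Mcm5, chr8:75109346-75109373, plus strand, 153 bases upstream: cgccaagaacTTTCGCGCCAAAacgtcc
Mcm6, chr1:128359798-128359825, minus strand, 110 bases upstream: ggcgtatgctTTTGGCGCGAAAagtgcg
Mcm6, chr1:128359735-128359762, minus strand, 47 bases upstream: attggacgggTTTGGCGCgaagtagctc
Mcm7, chr5:138172031-138172058, minus strand, 165 bases upstream: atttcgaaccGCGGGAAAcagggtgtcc
Mcm7, chr5:138171850-138171877, minus strand, 17 bases downstream: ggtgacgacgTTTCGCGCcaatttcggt
Dnmt1, chr9:20952825-20952852, minus strand, 219 bases upstream: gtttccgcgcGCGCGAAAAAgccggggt
Dnmt1, chr9:20952574-20952600, minus strand, 34 bases downstream: cggggcagcgTTTGGCGCgggctgtgc
In GENCODE M21, the windows of Mcm3, Mcm7 and Dnmt1 lie in annotated 5′ untranslated exons of those genes, the upstream Mcm7 window also in one of its divergent neighbour Ap4m1, and those of Mcm5 and Mcm6 lie outside any transcript. RefSeq lists more than 1 start for Dnmt1, and both of its windows are placed from the same start.

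The upstream promoters of the ribonucleotide reductase genes Rrm1 and Rrm2, which also rose, held no E2F-like match in the window searched. Their 250 upstream bases are shown beside those of Mcm3 with the CCAAT box in capitals on either strand.
Mcm3, chr1:20820313-20820562, minus strand: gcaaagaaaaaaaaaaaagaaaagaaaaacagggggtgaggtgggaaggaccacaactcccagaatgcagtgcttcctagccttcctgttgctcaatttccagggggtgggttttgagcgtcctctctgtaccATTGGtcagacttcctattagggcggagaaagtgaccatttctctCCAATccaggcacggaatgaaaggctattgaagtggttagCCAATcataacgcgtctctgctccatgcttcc
Rrm1, chr7:102441445-102441694, plus strand: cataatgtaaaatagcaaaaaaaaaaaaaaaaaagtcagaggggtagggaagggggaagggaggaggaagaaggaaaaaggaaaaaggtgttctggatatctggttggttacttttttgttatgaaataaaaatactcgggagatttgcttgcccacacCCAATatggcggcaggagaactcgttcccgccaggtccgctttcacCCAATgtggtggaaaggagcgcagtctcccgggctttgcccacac
Rrm2, chr12:24708004-24708253, plus strand: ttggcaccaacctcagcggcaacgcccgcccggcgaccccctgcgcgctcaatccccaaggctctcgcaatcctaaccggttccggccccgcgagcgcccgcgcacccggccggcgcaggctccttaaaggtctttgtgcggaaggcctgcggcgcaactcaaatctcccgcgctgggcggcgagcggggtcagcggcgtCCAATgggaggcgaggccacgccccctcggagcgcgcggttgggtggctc
The last bases of the Rrm2 sequence lie in a GENCODE first exon, and the others lie outside any transcript. The CCAAT box occurred 3 times upstream of Mcm3, 2 times upstream of Rrm1 and 1 time upstream of Rrm2.

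**Figure D1:**
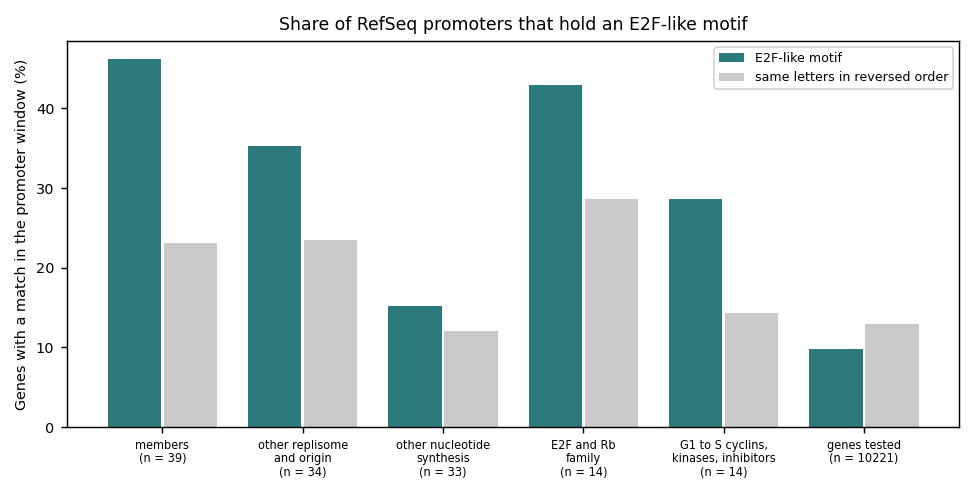
Share of genes (%, vertical axis) whose RefSeq promoter window held the E2F-like motif (green bars) or the same letters in reversed order (grey bars), for the replication genes (members), 4 related gene lists and all tested genes with a promoter. The E2F-like share was 46.2% for the replication genes and 9.86% for tested genes.

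The libraries were alike in depth. The totals were 5298326 estimated counts in WT, 5241826 in DF508 replicate 1 and 5246886 in DF508 replicate 2, and the 47 genes together held 5632, 7996 and 8395 of them. A count of 0 would allow up to 0.566, 0.572 and 0.572 CPM, the count scaled to a library total of 1000000. Cftr itself had 15, 1 and 1 counts, and gene totals do not show the deletion. All 10 tendon fibroblast markers were present in every library, with summed levels of 42630, 44200 and 46390 CPM, although Scx, a transcription factor that marks tendon cells, had only 16, 11 and 13 counts. Markers of several other cell types were scarce. The 6 endothelial markers summed to 14.7, 13.2 and 12.6 CPM, nearly all from Tek, and Pecam1 and Cdh5 were listed in no library. The 6 skeletal muscle markers summed to 1.98, 5.16 and 4.09 CPM, nearly all from Acta1, and Myod1 and Pax7 were listed in no library. The lymphocyte markers reached at most 1.36 CPM and the epithelial markers at most 0.763 CPM in any library, with Cd3e, Krt5, Krt14 and Cdh1 listed in none. The 4 Schwann cell markers summed to 11.7, 14.3 and 7.25 CPM. Myeloid and smooth muscle markers, which differed between the libraries, are given at the end.

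The replication genes were higher in the mutant cells almost throughout. Summed, they reached 1063 CPM in WT, 1525 CPM in DF508 replicate 1 and 1600 CPM in DF508 replicate 2, which is 1.44 and 1.51 times WT. Of the 47 genes, 44 were higher than WT in both DF508 libraries, against 43.3% of all genes tested. The exceptions were Gins1, Rpa3 and Tk1, and of these Rpa3 and Tk1 were lower in both, against 29.6% of genes tested. The fitted fold change was positive for 45, against 50.9% of genes tested. The median fitted log2 fold change (DF508 over WT) was 0.58, beside 0.01 over all genes tested.

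Fewer genes passed the test on their own. Mcm3, Pole, Rrm1, Rrm2 and Dnmt1 rose at an adjusted p under 0.05 in edgeR's quasi-likelihood test, 5 of 47, where 0.489% of all genes rose. None of the 47 fell, where 0.9% of all genes fell, and none was lower even at an unadjusted p under 0.05, where 6.08% of all genes were. At that unadjusted level 26 of the 47 were higher, against 5.86% of genes tested. With 1 WT library the calls depend on how the spread is estimated: edgeR's likelihood ratio test had 11 of the 47 rise (1.41% of all genes) and limma-voom 3 (0.403%). DESeq2's Wald test called 0 of the 47, where 0.116% of all genes rose. It gave most of the 47, Mcm3 included, no adjusted p, so those genes could not be called. That share of all genes likewise counts genes without an adjusted p. On library totals with no scaling factor, or with no filter on low counts, 0 of the 47 and 0% of all genes rose.

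**Figure D2:**
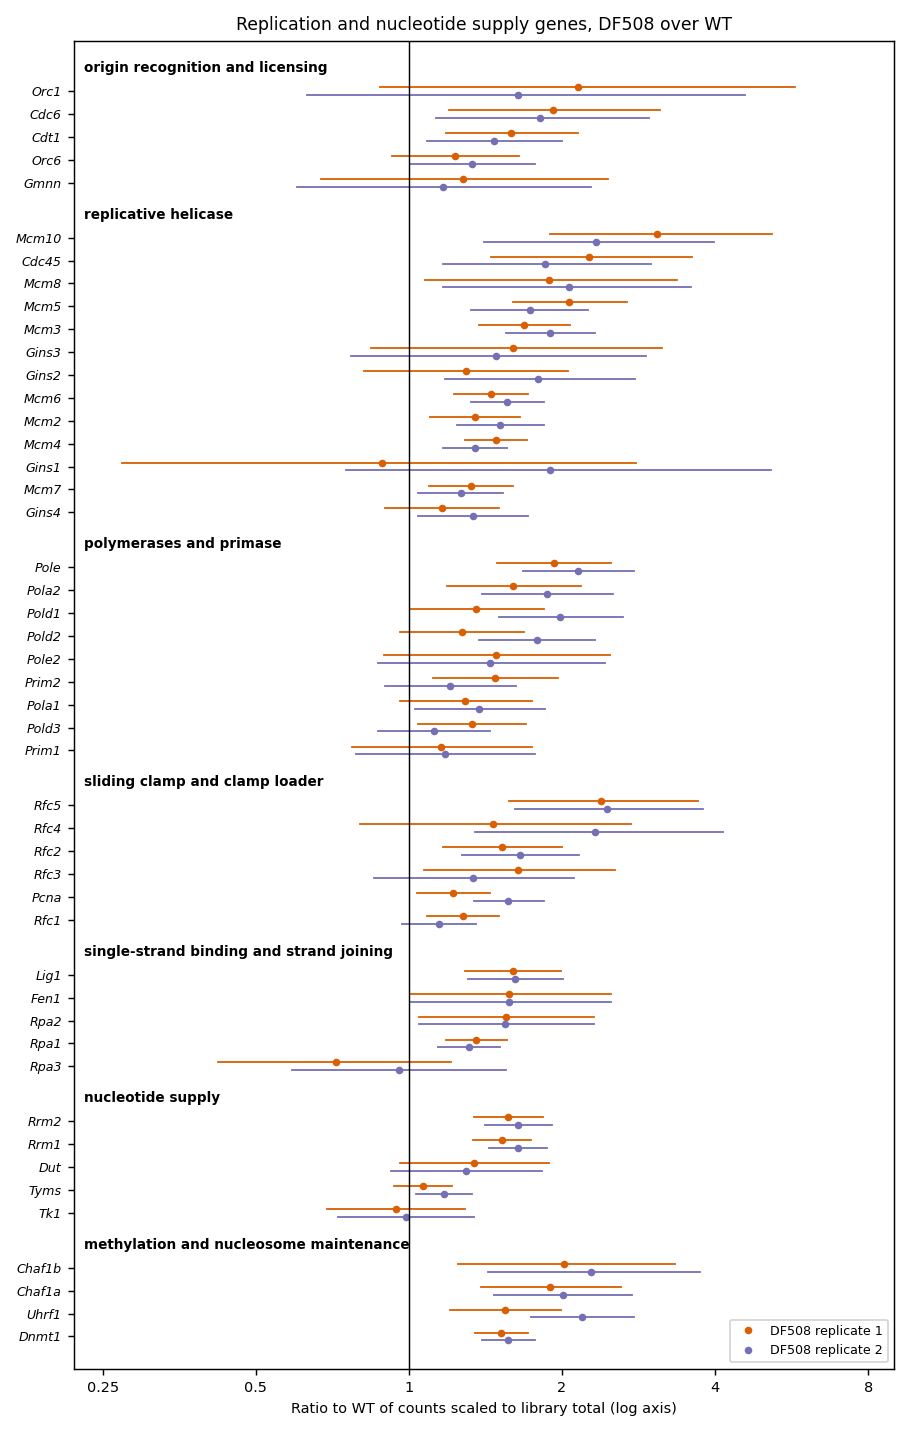
Ratio to WT of counts scaled to library totals (horizontal log axis) for each of the 47 genes, by function group, in DF508 replicate 1 (orange) and replicate 2 (purple). Bars are exact 95% intervals for counting error only; 27 genes have intervals above 1 in both DF508 libraries and none has an interval below 1 in either.

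Ratios were also taken one DF508 library at a time. Each is over the same WT library, so they are not independent of each other or of the fit. In DF508 replicate 1 the ratio to WT ranged from 0.718 (Rpa3) to 3.08 (Mcm10), with a median of 1.48. In replicate 2 it ranged from 0.957 (Rpa3) to 2.45 (Rfc5), with a median of 1.57. The exact 95% interval for counting error lay above 1 in both DF508 libraries for 27 genes, against 8.47% of genes tested. It lay below 1 in at least 1 DF508 library for none of the 47, against 14.7% of genes tested. The ratio was at least 1.5 in both libraries for 20 genes, against 5.87% of the 13233 genes whose mean was 1 CPM or more, and at least 2 in both for Mcm10, Rfc5 and Chaf1b, against 2.33%.

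The DF508 libraries were about as close to each other for these genes as over all genes tested. The median absolute log2 difference between them was 0.14, beside 0.16 over all genes tested. For 36 of the 47 genes the gap from WT to the nearer DF508 library was larger than the difference between the DF508 libraries, which held for 25.3% of genes tested. Gins1, Rfc4, Pold1 and Uhrf1 differed most between the DF508 libraries, and each was higher in replicate 2.

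Levels per transcript length, given as the authors' FPKM, spanned a wide range. The lowest value in WT was 0.50 FPKM (Orc1) and the highest 39.8 FPKM (Pcna), the clamp that holds polymerases on DNA. The median over the 47 genes was 5.97 FPKM in WT, 9.20 in DF508 replicate 1 and 9.27 in replicate 2. Pcna was the most abundant of the 47 per length in every library and Orc1 the least.

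**Figure D3:**
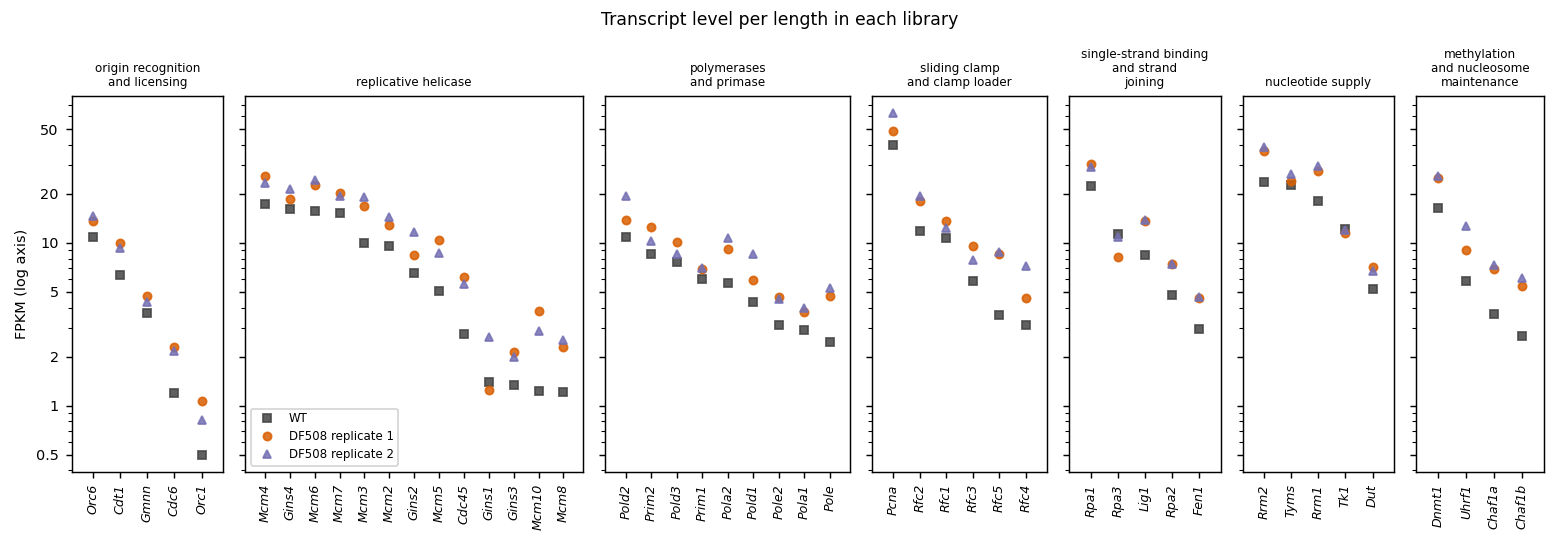
Level per transcript length (FPKM, vertical log axis) of each gene in WT (squares), DF508 replicate 1 (circles) and DF508 replicate 2 (triangles), by function group. WT is the lowest point for 44 of the 47 genes; Pcna is the highest gene, at 39.8, 48.7 and 62.5 FPKM.

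Origin recognition and licensing genes were higher in both DF508 libraries for all 5, with a median log2 fold change of 0.57. None passed the adjusted threshold, and Cdc6 and Cdt1 were higher at an unadjusted p under 0.05. Cdc6, the ATPase that loads the helicase, stood at 5.47 CPM in WT and at 10.49 and 9.91 CPM in the DF508 libraries. Cdt1, its partner in loading, stood at 14.2, 22.5 and 20.8 CPM. Both DF508 values lay well above WT for either gene, and the counting intervals of all 4 ratios lay above 1.

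Orc6, a small subunit of the origin recognition complex, had the highest FPKM of the group and 17.2, 21.2 and 22.9 CPM (log2 fold change 0.31 ± 0.21 SE, adjusted p = 0.63). Orc1, the ATPase subunit that cycles with cell division, had the largest fitted change of the group but only 8, 17 and 13 counts (0.87 ± 0.72, adjusted p = 0.709). Geminin (Gmnn), the protein that blocks Cdt1 after origins have fired, had 19, 24 and 22 counts (0.24 ± 0.50, adjusted p = 0.903). For Orc1 and Gmnn the difference from WT was within counting error in both DF508 libraries.

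The replicative helicase group held 13 genes, of which 12 were higher in both DF508 libraries and 1, Mcm3, passed the threshold. The 6 subunits of the helicase ring, Mcm2 to Mcm7, reached together 223 CPM in WT and 335 CPM in each DF508 library, a ratio of 1.502 in both. All 6 were higher at an unadjusted p under 0.05. Mcm3 was at 29.1 CPM in WT and at 49.0 and 55.1 CPM in the DF508 libraries, a fitted log2 fold change of 0.80 ± 0.15 (SE) with an adjusted p of 0.045. The DF508 values were close to each other and both far above WT.

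Mcm4, the subunit with the highest mean FPKM over the libraries, was at 62.3, 92.3 and 84.1 CPM (0.46 ± 0.12, adjusted p = 0.149). Mcm5, at 17.3, 35.8 and 29.9 CPM, had the largest fitted change of the ring (0.88 ± 0.21, adjusted p = 0.0997), and part of its reads are shared with another gene or copy. Mcm7 had the smallest, at 36.8, 48.7 and 46.5 CPM (0.33 ± 0.14). The ring is built of 1 copy of each subunit. As a measure of spread, the highest FPKM was 3.43 times the lowest in WT, 2.46 times in DF508 replicate 1 and 2.80 times in replicate 2. The lowest was Mcm5 in every library, at 5.04, 10.4 and 8.71 FPKM, so the narrower spread follows this gene with shared reads. The next lowest, Mcm2, was at 9.51, 12.8 and 14.4 FPKM, and the highest values were 17.3, 25.6 and 24.4 FPKM. No test was made of that spread.

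Mcm10, which helps to activate the loaded helicase, showed the largest fitted change of all 47 genes. It had 4.34 CPM in WT and 13.4 and 10.1 CPM in the DF508 libraries (1.38 ± 0.36, adjusted p = 0.135). Its 23 counts in WT leave a wide interval: the ratio was 3.08 (95% interval 1.90 to 5.16) in replicate 1 and 2.33 (1.40 to 3.98) in replicate 2. Cdc45, the factor that completes the active helicase, was at 5.66, 12.8 and 10.48 CPM (0.99 ± 0.32, adjusted p = 0.237). Mcm8, a relative of the ring subunits with a known part in recombination repair, was at 3.92, 7.38 and 8.09 CPM (0.91 ± 0.39, adjusted p = 0.403).

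The GINS complex binds the helicase together with Cdc45. Gins1, Gins2, Gins3 and Gins4 summed to 33.2 CPM in WT and 40.4 and 48.8 CPM in the DF508 libraries, and none was higher even at an unadjusted p under 0.05. Gins4, with the highest FPKM of the complex, was at 21.7, 25.2 and 29.0 CPM (0.27 ± 0.20, adjusted p = 0.664), the smallest change of the helicase group. Gins1 had 8 counts in WT, 7 in DF508 replicate 1 and 15 in replicate 2, so its groups overlapped.

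**Figure D4:**
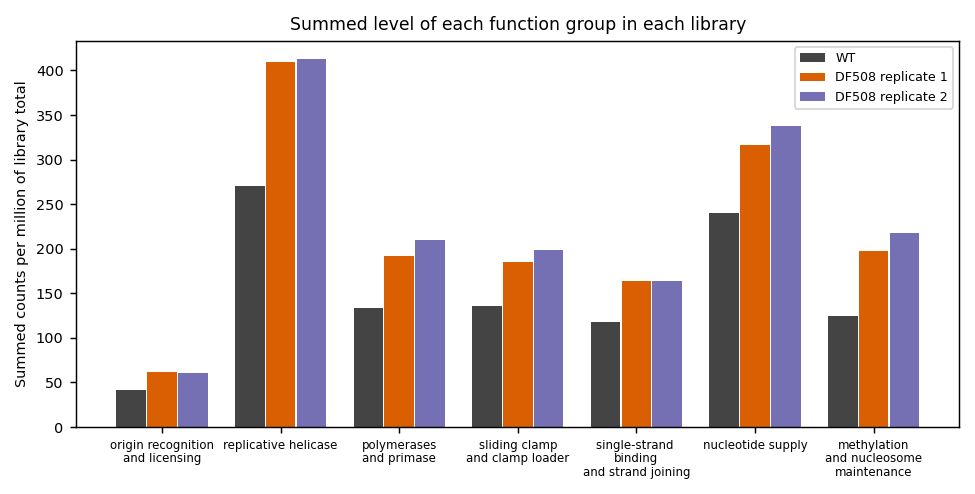
Summed CPM (vertical axis, from 0) of each of the 7 function groups in WT (dark), DF508 replicate 1 (orange) and DF508 replicate 2 (purple). WT is the lowest bar in every group; the helicase group reads 270 in WT and 409 and 413 in the DF508 libraries.

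All 9 genes of the polymerase and primase group were higher in both DF508 libraries, their median log2 fold change was 0.50, and 1 passed the threshold. That gene, Pole, encodes the catalytic subunit of polymerase epsilon, the main leading strand polymerase. It had 17.7 CPM in WT and 34.2 and 38.1 CPM in the DF508 libraries, a log2 fold change of 0.98 ± 0.19 (SE) with an adjusted p of 0.0476. Its call is the most fragile of the 5: with a minimum mean of 50 counts its adjusted p was 0.0535, within a range of 0.00278 to 0.662 over the alternatives tried.

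The other catalytic subunits were higher by less. Pold1 of polymerase delta, which copies the lagging strand, was at 14.9, 20.2 and 29.5 CPM (0.69 ± 0.27, adjusted p = 0.339), with the DF508 libraries farther apart from each other than replicate 1 was from WT. Pola1 of polymerase alpha, which starts each new strand with primase, was at 15.7, 20.2 and 21.5 CPM (0.37 ± 0.21, adjusted p = 0.56). Prim1, the catalytic primase subunit, was at 9.06, 10.49 and 10.7 CPM (0.18 ± 0.28, adjusted p = 0.871), the smallest change of the group. The counting intervals of Prim1 spanned 1 in both DF508 libraries.

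Among accessory subunits, Pola2 stood at 13.8, 22.1 and 25.7 CPM (0.75 ± 0.22, adjusted p = 0.199) and shares some reads with another gene or copy. Pold2 had the highest FPKM of the group and 17.7, 22.5 and 31.6 CPM (0.56 ± 0.25, adjusted p = 0.418). Pold2 overlaps Aebp1, a gene at 3793 CPM in WT and 2611 and 2625 CPM in the DF508 libraries. Aebp1 was thus lower where Pold2 was higher, and the sources used here do not say whether strand was used in counting. In all, 12 of the 47 genes overlap the span of another listed gene and 4 share reads (Mcm5, Mcm8, Pola2 and Tyms); among the 5 that rose, none is in either class.

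The sliding clamp and its loader, replication factor C, held 6 genes, all higher in both DF508 libraries and none past the threshold, with 3 higher at an unadjusted p under 0.05. Pcna was at 49.5, 60.5 and 77.6 CPM (0.44 ± 0.16, adjusted p = 0.311), and the DF508 libraries differed from each other more than replicate 1 differed from WT. The 5 loader subunits summed to 85.9, 124 and 121 CPM. Within the loader the changes were uneven.

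Rfc5, a small subunit, had 6.23 CPM in WT and 14.9 and 15.3 CPM in the DF508 libraries (1.23 ± 0.28, adjusted p = 0.0852). Its ratios of 2.39 (95% interval 1.57 to 3.71) and 2.45 (1.61 to 3.79) were nearly equal in the DF508 libraries. Rfc1, the large subunit, was at 51.2, 65.2 and 58.5 CPM (0.23 ± 0.13, adjusted p = 0.547). Rfc2 was at 17.7, 27.1 and 29.4 CPM (0.62 ± 0.20), Rfc3 at 6.98, 11.5 and 9.34 CPM (0.53 ± 0.32) and Rfc4 at 3.78, 5.53 and 8.77 CPM (0.87 ± 0.46). The difference between the largest and smallest changes of the loader was not tested.

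The single-strand binding and strand joining group was higher in both DF508 libraries for 4 of its 5 genes. Rpa1, the large subunit of replication protein A, which coats unwound DNA, had the highest FPKM of the group and 68.7, 93.1 and 90.2 CPM (0.37 ± 0.11, adjusted p = 0.206). Rpa2 was at 8.49, 13.2 and 13.2 CPM (0.59 ± 0.27). Rpa3, the smallest subunit of the same trimer, was at 7.17, 5.15 and 6.86 CPM (-0.30 ± 0.38, adjusted p = 0.829). Both DF508 values of Rpa3 lay below WT, within counting error.

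Lig1, the ligase that seals Okazaki fragments, was at 26.6, 42.5 and 43.1 CPM (0.64 ± 0.15, adjusted p = 0.109). Fen1, the nuclease that trims the flaps between them, was at 6.42, 10.1 and 10.1 CPM (0.61 ± 0.32, adjusted p = 0.5). The DF508 libraries agreed closely for both genes, with ratios to WT of 1.599 and 1.619 for Lig1 and 1.58 and 1.57 for Fen1. None of the 5 genes of the group passed the threshold, and Rpa1 and Lig1 were higher at an unadjusted p under 0.05.

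In the nucleotide supply group 2 of 5 genes passed the threshold. Both subunits of ribonucleotide reductase, which makes deoxynucleotides from ribonucleotides, rose. Rrm1, the large subunit, was at 72.9 CPM in WT and at 111 and 119 CPM in the DF508 libraries (0.61 ± 0.12, adjusted p = 0.043). Rrm2, the small subunit that is made in S phase and has the highest FPKM of the group, was at 51.7, 81.1 and 84.8 CPM (0.64 ± 0.12, adjusted p = 0.0429). Their ratios to WT were nearly the same, 1.52 and 1.64 for Rrm1 and 1.57 and 1.64 for Rrm2.

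The other 3 genes of the group did not pass. Tyms, which makes dTMP from dUMP, was at 86.2, 91.9 and 101 CPM (0.12 ± 0.12, adjusted p = 0.763), and shares some reads with another gene or copy. Tk1, the S phase thymidine kinase of the salvage route, was at 16.8, 15.8 and 16.6 CPM (-0.10 ± 0.22, adjusted p = 0.916). Dut, which removes dUTP, was at 12.1, 16.2 and 15.6 CPM (0.35 ± 0.24, adjusted p = 0.63). The counting interval of the Tyms ratio spanned 1 in replicate 1 and lay above 1 in replicate 2 (1.03 to 1.33). The differences between the enzymes were not tested. For Tk1 the 95% counting intervals of the ratio, 0.690 to 1.29 and 0.726 to 1.34, leave room for a change in either direction.

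The methylation and nucleosome group had the highest median change of the 7, at 0.89, with all 4 genes higher at an unadjusted p under 0.05. Dnmt1, which copies methylation onto the new strand, rose from 87.4 CPM in WT to 133 and 137 CPM (0.58 ± 0.11, adjusted p = 0.044). Uhrf1, which brings Dnmt1 to half-methylated DNA, was at 20.4, 31.5 and 44.6 CPM (0.85 ± 0.23, adjusted p = 0.164). Dnmt1 was almost equal in the DF508 libraries, while Uhrf1 was higher in replicate 2 than in replicate 1.

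Chaf1a and Chaf1b encode the larger subunits of chromatin assembly factor 1, which places histones on new DNA. Chaf1a was at 12.1, 22.9 and 24.2 CPM (0.92 ± 0.22, adjusted p = 0.109). Chaf1b was at 5.10, 10.3 and 11.6 CPM (1.06 ± 0.33, adjusted p = 0.214), the largest change of the group. The ratios of Chaf1b, 2.02 and 2.28, were both above 2, and the counting intervals of both subunits lay above 1 in each DF508 library.

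The median log2 fold change was 0.58 for the 18 genes with an E2F-like match in the promoter window (0.12 to 0.91) and 0.59 for the 21 without one (-0.30 to 1.38). Among genes with a match, Mcm8 had the largest change and Tyms the smallest. Among those without one, Mcm10 had the largest and Rpa3 the lowest. A gene without a match lacked only this motif in this window, and binding of E2F was not measured. The split therefore cannot separate E2F targets from other genes.

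Other genes of the same pathways were placed beside these in 4 lists. Over all genes tested, 50.9% had a positive fold change and 0.489% rose, or 1.41% in the likelihood ratio test. At an unadjusted p under 0.05 in the quasi-likelihood test, 5.86% of all genes were higher and 6.08% lower. Of 41 tested factors among the other replisome and origin genes, 36 had a positive fold change, the median was 0.38 and 3 rose. These were Topbp1, which helps fire origins (36.8, 72.7 and 76.4 CPM, 0.97 ± 0.13, adjusted p = 0.0112), Top2a, which untangles copied DNA (87.8, 154 and 181 CPM, 0.89 ± 0.13, adjusted p = 0.0198), and Pclaf, a Pcna partner that shares reads (23.7, 42.2 and 52.8 CPM, 0.95 ± 0.19, adjusted p = 0.049). The histone chaperone Asf1b had the largest change of that list (1.18, adjusted p = 0.135) and Rnaseh2c, a subunit of the RNase H2 that removes ribonucleotides from DNA, the lowest (-0.28, adjusted p = 0.822).

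The wider nucleotide enzymes were nearly level. Of 37 other synthesis and salvage genes, 22 had a positive fold change, the median was 0.09 and 0 passed edgeR's threshold, with 4 higher and 1 lower at an unadjusted p under 0.05 and 1 called by the likelihood ratio test. Prps2, which makes the ribose phosphate donor, was lowest (-0.44, adjusted p = 0.149).

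As whole lists, regulators were mixed in direction. Of 18 E2F and Rb family genes, 11 had a positive fold change, the median was 0.09 and 0 passed edgeR's threshold, with 4 higher and 0 lower at an unadjusted p under 0.05 and 1 called by the likelihood ratio test. E2f7, a repressor of the E2F family that is itself induced in S phase, was highest, at 4.91, 12.2 and 13.7 CPM (1.35 ± 0.31, adjusted p = 0.0925), and Lin52 of the DREAM complex was lowest (-0.51, adjusted p = 0.487). Of 19 G1 to S cyclins, kinases and inhibitors, 10 had a positive fold change, the median was 0.12 and 1 rose, the S phase cyclin Ccna2, at 41.7, 69.1 and 88.6 CPM (0.87 ± 0.17, adjusted p = 0.045). Cdkn2c, an inhibitor of the G1 kinases, was lowest, at 19.4, 11.1 and 10.7 CPM (-0.88 ± 0.23, adjusted p = 0.14). That list holds cyclins and kinases together with their inhibitors, so opposite changes can cancel in its median. In the quasi-likelihood test, 3 of its genes were higher at an unadjusted p under 0.05 (Ccna2, Cdk2 and Fbxo5). The 3 lower at that level, Cdkn1a, Cdkn2a and Cdkn2c, each encode a kinase inhibitor, and none passed the adjusted threshold. Cdkn2a differed widely between the DF508 libraries, at 51.2 CPM in WT and 39.1 and 21.5 CPM in DF508. Cdkn1b, Cdkn1c, Cdkn2b and Cdkn2d did not reach that level.

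**Figure D5:**
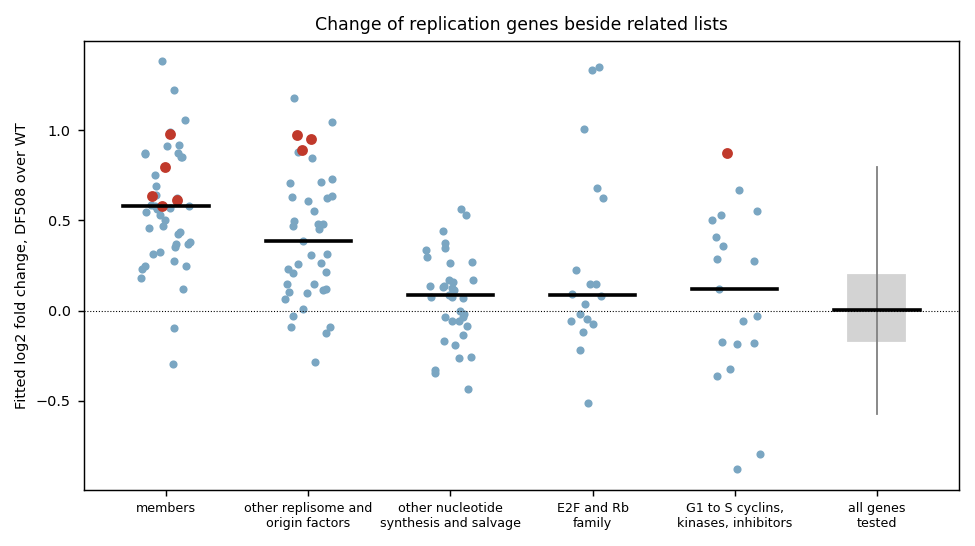
Fitted log2 fold change (DF508 over WT, vertical axis) of each gene in the replication genes (members) and 4 related lists, with black bars at the medians and red points for genes past the threshold; for all genes tested the box spans the 25th to 75th and the line the 5th to 95th percentile. The medians are 0.58, 0.38, 0.09, 0.09 and 0.12, beside 0.01 over all genes.

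Markers of other cells differed between the libraries as well. The 15 myeloid markers summed to 97.4 CPM in WT, 151 CPM in DF508 replicate 1 and 688 CPM in replicate 2, ratios of 1.54 and 7.07, and all 14 tested had positive fold changes, none past the threshold and 9 at an unadjusted p under 0.05. For the replication genes the summed ratio was 1.44 in replicate 1 and 1.51 in replicate 2, and the median log2 fold change was 0.53 without replicate 2 and 0.60 without replicate 1. The 8 smooth muscle and pericyte markers summed to 933, 1617 and 1538 CPM, ratios of 1.73 and 1.65, with Acta2 and Cnn1 past the threshold. The rise of the sum came largely from Acta2, at 411, 1072 and 1020 CPM. Of the 7 tested, 5 had a positive and 2 a negative fold change. Pdgfrb, the most abundant of the list in WT, was lower in both DF508 libraries, at 477, 442 and 420 CPM. The part of these myeloid and smooth muscle genes in the difference was not tested.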

How the data were processed

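Poly(A) RNA was sequenced in 3 libraries, per the labels' protocols, and processed with Bowtie and RSEM on mm9, per the submitters' processing notes, which name no versions. Each library's deposited table gives RSEM's expected count, an estimate of the reads of each gene that is not normalized, and the authors' FPKM, which is scaled to gene length and library size. A gene missing from a table was set to 0. Of the expected counts 79.4% to 79.8% were whole within 0.005; a gene with other values is said to share reads.

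CPM values are expected counts scaled to a library total of 1000000. For the test, counts were rounded to whole numbers and fitted over all 12888 genes that passed filterByExpr with edgeR 4.0.16 (R 4.3.3): TMM library sizes, quasi-likelihood F test, genotype as the sole term, Benjamini-Hochberg adjustment, threshold 0.05. Only the DF508 pair gives the fit a residual degree of freedom (1); edgeR estimated 7.72 prior degrees of freedom. The standard error is the size of the log2 fold change over the square root of F. Ratio intervals are exact 95% intervals from the binomial split of the counts; they and the limit for a count of 0 (3 counts) cover counting error only. The test was checked on simulated data whose spread was drawn from the real fit, which leaves the spread of the real data unchecked.

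The genes and lists were chosen with earlier results of these data known, so no list is tested. Symbols come from a RefSeq table of GRCm38.p6 (16579 of 16621 IDs matched). Promoter sequences are RefSeq's, in that build; no coordinates of the files' build are used. Full statistics go to genes past the threshold and, in each function group, to those with the highest mean FPKM, the highest and the lowest fold change; other genes were named after their values were seen. Upstream sequences were to be shown only for genes past the threshold; the short motif windows of Mcm5, Mcm6 and Mcm7 and those downstream of a start were added. Alternatives were other library sizes, filters, DESeq2 1.42.0, limma 3.58.1 (voom, and log2(FPKM + 1) or log2(FPKM + 0.1)), genes with whole estimates alone, and each DF508 library left out.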

Additional observations from a re-analysis of the deposited data

How the results depend on the processing

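The direction held more firmly than the calls. The median log2 fold change of the 47 genes lay between 0.54 and 0.62 over other library sizes, filters, tests and units, and between 0.53 and 0.60 with either DF508 library left out. The count of genes higher in both DF508 libraries was 44 under every scaling tried after the data were seen (TMM, DESeq2 size factors and FPKM). With a single DF508 library it was 44 to 45, but that rule is looser and could not give fewer than 44. The count past the threshold, 5, fell to 0 on library totals and with no filter. It was also 0 in DESeq2's Wald test, where most of the 47 genes, Mcm3 included, had no adjusted p. The limma fits on log2(FPKM + 1), log2(FPKM + 0.1) and unfiltered FPKM gave 0 as well. The count fell to 3 in limma-voom and rose to 11 in the likelihood ratio test. On library totals and with no filter the prior degrees of freedom were 2.57 and 1.78 in place of 7.72, and no gene of the whole table was called (smallest adjusted p 0.181 and 0.662). The same settings, without the Wald test and limma-voom, took the other replisome genes from 3 called to 0. With those 2 and with a minimum of 50 counts, they took the G1 to S genes from 1 to 0. The likelihood ratio test called 1 gene in the nucleotide synthesis list and 1 in the E2F list, where 0 passed. At least 1.5-fold in both DF508 libraries held for 20 genes on library totals, 15 on TMM sizes and 3 at 2-fold. With a single DF508 library it held for 23 to 28, a count that likewise could not be lower than 20.

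Precision is limited by 1 WT library and by low counts, since 14 of the 47 genes had a mean under 50. Without a DF508 library no residual degree of freedom is left, so those values have no test. No paired analysis was possible because the WT group has 1 library, which leaves no second pair.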
